A study of Mus musculus with 24 samples.

Results

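The genes followed here encode hormones and other proteins that the liver secretes, together with a receptor for one of them. Fgf21, Gdf15, Enho, Leap2, Angptl4, Fst, Inhbe and Ahsg encode the secreted proteins, and Klb encodes the co-receptor of FGF21. They were chosen by name as known hepatokines or fasting hormones, with earlier results of these data known, and all 9 were among the 21495 genes tested. Liver mRNA was measured on 24 Agilent 1-colour arrays, 1 mouse each, from male mice aged 12 weeks, to ask how the hepatocyte p110α subunit of PI3K, encoded by Pik3ca, bears on the liver in feeding and fasting. LKO mice carried the floxed p110α gene with Cre under the albumin promoter, which is active in hepatocytes, and LWT mice were their floxed littermates without Cre. Mice of each genotype either had food at all times (LWT_Fed, LKO_Fed) or went without it for 24 h (LWT_Fasted, LKO_Fasted), with 6 mice in each of the 4 groups, and all were killed at ZT16, in the dark phase. Whole liver was used, so that fewer cells of a type and less RNA per cell cannot be told apart.

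Hepatokines carry information on the nutritional state of the liver to other organs. FGF21 acts on adipose tissue and brain through FGF receptors that need β-klotho, the product of Klb, and its gene is a classical target of PPARα in fasting and of ChREBP and the stress factor ATF4 in other states. GDF15 and activin E (from Inhbe) are also hormones of the TGF-β superfamily, follistatin (Fst) binds and neutralises activins, LEAP2 blocks the ghrelin receptor, adropin (Enho) and fetuin-A (Ahsg) have been tied to insulin action, and ANGPTL4 inhibits lipoprotein lipase.

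The 9 genes fell into 3 kinds of pattern. Fgf21, Inhbe and Leap2 changed with fasting in both genotypes and changed further in LKO, Fgf21 and Inhbe upward and Leap2 downward. Enho and Fst were higher in LKO than in LWT whether the mice were fed or fasted, and Enho also fell with fasting in LKO. Angptl4 rose with fasting about equally in both genotypes, Gdf15 rose with fasting in both, Klb rose in LKO on its brighter probe only, and no difference in Ahsg passed the test. A call required an adjusted p of at most 0.05 in limma (Benjamini-Hochberg over all probes kept) and a change of more than 1.5-fold. By this rule fasting changed 5 of the 9 genes in LWT, 4 upward and 1 downward, where 10.0% of all genes were called, 4.79% upward and 5.24% downward. In LKO it changed 7 of the 9, 5 upward and 2 downward, against 12.7% of all genes, 5.88% upward and 6.85% downward. LKO differed from LWT in 5 of the 9 genes in the fed state, 2 higher and 3 lower, against 3.84% of all genes, 2.65% higher and 1.19% lower. In the fasted state it differed in 5, 4 higher and 1 lower, against 4.04% of all genes, 1.76% higher and 2.28% lower. The fasting change itself differed between the genotypes for 3 of the 9 genes, 2 with a more positive change in LKO and 1 with a more negative one, against 3.12% of all genes, 1.58% and 1.54%. The 6 mice of a group did not overlap with those of the other for 4 of the 9 genes with fasting in LWT (21.6% of all genes), 8 with fasting in LKO (22.1%), 4 between genotypes fed (8.62%) and 4 fasted (8.69%). The median size of the log2 difference over the 9 genes was 0.80 for fasting in LWT, 1.36 for fasting in LKO, 0.81 between genotypes fed and 0.84 fasted, where the medians over all genes tested were 0.17, 0.19, 0.11 and 0.13. These comparisons share arrays and are not independent of each other.

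**Figure D1:**
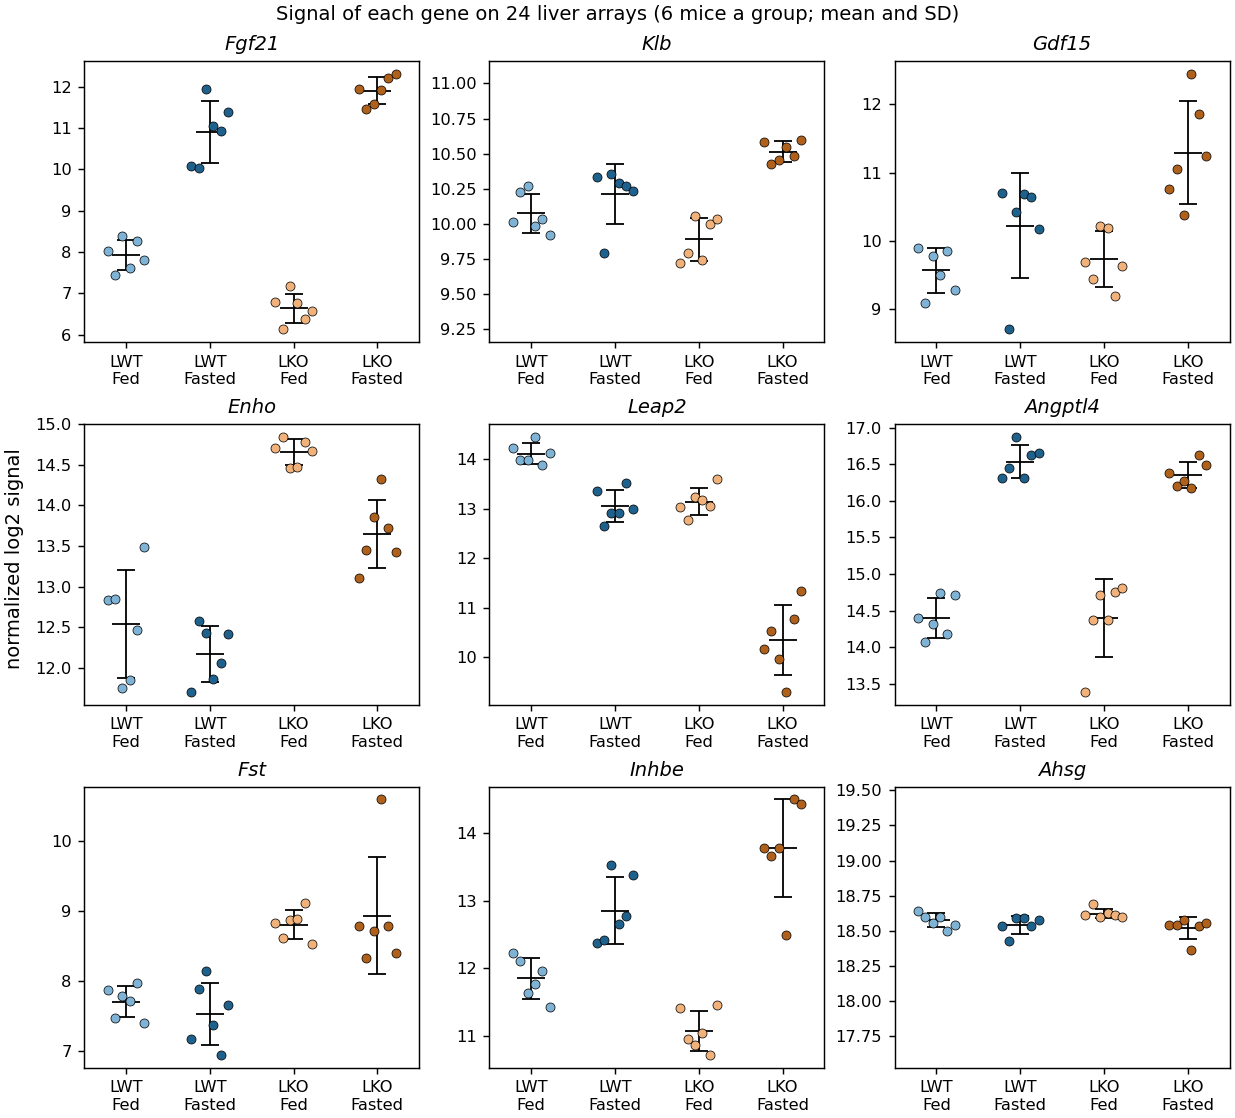
Normalized log2 signal of each of the 9 genes (y axis, a scale of its own for each gene) on the 24 arrays, by group (x axis). Points are single mice, and bars give the mean and SD of 6. Fgf21 ran from 6.13 to 7.17 in LKO_Fed and from 11.47 to 12.31 in LKO_Fasted, the widest gap in the plot, while Ahsg stayed between 18.36 and 18.69 on all arrays.

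Between 54.7% and 63.0% of spots on an array were well above background, and no spot was saturated. All 11 probes of the 9 genes were well above background on all 24 arrays, so none of them was held back by the filter on dim probes. The mean of 6 hepatocyte markers (Alb, Apoa1, Ttr, Hnf4a, Serpina1a and Tat) lay between 17.38 and 17.74 on every array. It ran from 17.40 to 17.55 in LWT_Fed, 17.54 to 17.74 in LWT_Fasted, 17.49 to 17.56 in LKO_Fed and 17.38 to 17.63 in LKO_Fasted. Quantile normalization makes the brightest values alike on all arrays, so this narrow range is no check of quality. The lowest correlation between arrays of a group was 0.992 in LWT_Fed, LWT_Fasted and LKO_Fed and 0.985 in LKO_Fasted. The signal of the Pik3ca probe was 11.91 ± 0.21 (SD, n = 6) in LWT_Fed, 12.28 ± 0.14 in LWT_Fasted, 12.54 ± 0.26 in LKO_Fed and 12.26 ± 0.19 in LKO_Fasted, so that no call of lower signal was made in arrays labelled LKO. The log2 difference of LKO from LWT was 0.58 fed (SE 0.112, adjusted p = 0.00132) and -0.02 fasted (SE 0.119, adjusted p = 0.925), and the fasting responses differed by -0.60 (adjusted p = 0.0279), which was called. Whether that probe lies in the floxed exons was not settled here, so it does not check the labels, and LWT and LKO name the labels of the arrays throughout.

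Markers of several cell types differed between the groups, and these values stand beside every difference given here. The mean of 5 cholangiocyte markers ranged from 7.26 to 7.97 in LWT_Fed and from 6.81 to 7.39 in LKO_Fed, and from 7.29 to 7.55 in LWT_Fasted against 6.40 to 7.03 in LKO_Fasted, with 1 of the 5 called lower in each state. The marker least often well above background was so on 2 of 6 arrays in LKO_Fed and 1 of 6 in LKO_Fasted, against 6 in each LWT group. The LKO means thus include values near background. Of 5 adipose markers 4 were tested (Adipoq was too dim), and their mean ranged from 9.53 to 10.26 in LWT_Fed and from 8.97 to 9.25 in LKO_Fed, with 1 called lower, and from 8.65 to 10.65 in LWT_Fasted and from 8.06 to 8.69 in LKO_Fasted, with 2 called lower. At least 1 of the 4 was well above background on only 3 arrays of LKO_Fed, 4 of LKO_Fasted and 5 of LWT_Fasted. Only 2 of 5 exocrine pancreas markers were tested, and their mean ranged from 10.92 to 11.23 in LWT_Fed and from 10.49 to 11.06 in LKO_Fed, and from 10.43 to 10.90 in LWT_Fasted against 9.84 to 10.16 in LKO_Fasted, with 1 called lower in the fasted state. In LKO 1 of 6 endothelial markers was called lower fed, and of 3 erythroid markers tested 1 was called lower in each state, with a median of -0.33 fed and 0.49 fasted over the 3. The 5 periportal hepatocyte markers were Cyp2f2, Hal, Sds, Pck1 and Ass1, and their mRNA can change without a change in cell numbers. Of these 1 was called higher in LKO fed and 1 lower fasted, with a more negative response of 2. Of 5 pericentral markers 1 was lower fasted, with a more negative response of 1. The mean of the periportal markers ranged from 15.19 to 15.65 in LWT_Fed and from 15.93 to 16.14 in LWT_Fasted, with 2 called higher with fasting, and in LKO 1 was called higher and 2 lower. Of the pericentral markers 1 was called higher in LWT, and 1 higher and 1 lower in LKO. The pancreas means did not overlap between fed and fasted mice of either genotype, with 1 marker lower in each. Of the cholangiocyte markers 1 was called lower in LWT and 2 in LKO, and 1 adipose and 1 stellate marker were lower in each genotype. The part of these levels in the genotype and fasting differences was not tested. Of the 6 Kupffer markers none was called in any of the 5 comparisons, but their mean stood at 12.51 in LKO_Fasted replicate 6, against 10.18 to 11.63 on the other arrays.

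For 5 of the 9 genes RefSeq promoter windows of GRCm38.p6 were at hand, covering the 250 bases before each transcript start. Those of Fgf21 and Inhbe are shown because these genes had the widest fasting rise in LKO, those of Gdf15 as a further hormone gene that rose, and that of Ahsg as a gene whose differences did not pass. Each is printed 5′ to 3′ along the gene's own strand, ending at the base before the start, and capitals mark matches to a fixed set of motifs. Enho, Leap2, Angptl4 and Fst had no window in the table.
Fgf21 (chr7:45615491-45615740, minus strand): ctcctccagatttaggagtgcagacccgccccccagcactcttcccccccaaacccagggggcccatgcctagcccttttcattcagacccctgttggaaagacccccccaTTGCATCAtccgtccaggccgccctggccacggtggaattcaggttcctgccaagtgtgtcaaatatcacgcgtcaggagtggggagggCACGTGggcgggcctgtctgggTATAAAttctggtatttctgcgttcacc
Inhbe (chr10:127351849-127352098, minus strand): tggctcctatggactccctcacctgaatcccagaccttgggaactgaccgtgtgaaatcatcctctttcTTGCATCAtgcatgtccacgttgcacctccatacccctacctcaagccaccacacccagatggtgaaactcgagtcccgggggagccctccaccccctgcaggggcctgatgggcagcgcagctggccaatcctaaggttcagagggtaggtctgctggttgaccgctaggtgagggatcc
Gdf15, first start (chr8:70632096-70632345, minus strand): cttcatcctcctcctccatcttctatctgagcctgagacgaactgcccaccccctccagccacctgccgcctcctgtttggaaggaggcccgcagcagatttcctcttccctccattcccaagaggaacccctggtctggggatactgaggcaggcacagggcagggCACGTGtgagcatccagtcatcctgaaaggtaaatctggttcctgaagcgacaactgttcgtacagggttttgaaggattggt
Gdf15, second start (chr8:70632457-70632706, minus strand): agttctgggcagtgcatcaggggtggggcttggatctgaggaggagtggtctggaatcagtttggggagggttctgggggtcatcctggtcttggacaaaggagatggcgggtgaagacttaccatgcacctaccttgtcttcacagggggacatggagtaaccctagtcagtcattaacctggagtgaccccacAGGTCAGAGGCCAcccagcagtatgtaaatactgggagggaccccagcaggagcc
Ahsg (chr16:22891765-22892014, plus strand): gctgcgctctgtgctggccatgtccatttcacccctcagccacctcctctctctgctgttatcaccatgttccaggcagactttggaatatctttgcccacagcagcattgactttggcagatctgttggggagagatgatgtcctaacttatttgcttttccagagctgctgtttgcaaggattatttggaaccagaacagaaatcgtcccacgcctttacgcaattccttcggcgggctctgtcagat

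The motifs searched on both strands were the ATF4 composite core TGATGNAA, the E-box CACGTG, the TATA box TATAAA, the PPAR repeat (2 copies of AGGNCA with 1 base between them), the FOXO core GTAAACA, the CREB site TGACGTCA and the STAT palindrome TTCNNNGAA. Fgf21 and Inhbe held the same 8 letters, TTGCATCA, which is the ATF4 core read on the other strand, at 139 to 132 bases before the start of Fgf21 and at 181 to 174 bases before that of Inhbe. The core was present in 3.45% of the 32851 windows of all genes. Fgf21 also held an E-box at 50 to 45 bases, a motif found in 6.02% of windows, and a TATA box at 28 to 23 bases, found in 12.4%. The first Gdf15 window held an E-box at 83 to 78 bases. The second held the PPAR repeat at 55 to 43 bases, which 0.338% of windows held. The windows of Ahsg and Klb held none of the 7 motifs. The FOXO core, CREB site and STAT palindrome, found in 3.17%, 1.55% and 7.02% of all windows, were in none of the 6 windows. A match describes letters and does not show that a factor binds there.

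Fgf21 (NM_020013, probe at chr7:52869305-52869364 of mm9) had the steepest fasting response of the 9 genes. Its normalized log2 signal had a lowest value of 7.45, a median of 7.92 and a highest of 8.38 in LWT_Fed, and 10.04, 10.99 and 11.94 in LWT_Fasted. In LKO_Fed the same values were 6.13, 6.67 and 7.17, and in LKO_Fasted 11.47, 11.93 and 12.31. All fasted mice were above all fed mice in either genotype, fed LKO mice were all below fed LWT mice, and the fasted groups overlapped. Fasting raised Fgf21 by 3.18 (SE 0.249, 9.04-fold, adjusted p = 1.77e-09) in LWT and by 5.21 (SE 0.277, 37.1-fold, adjusted p = 3.88e-12) in LKO, the 25th and 5th largest changes of all genes tested by size. The rise in LKO started from dim spots, with median intensities before background subtraction of 66.5 to 154 in LKO_Fed, where the median spot of an array read 69 to 88.5 over the 24 arrays. It was 5.92 with the background-subtracted processed signal and 4.96 with normexp background correction.
The difference between these responses was 2.04 (SE 0.373, 95% confidence interval 1.26 to 2.81, adjusted p = 0.00198), which is a further 4.11-fold in LKO. It was made of a lower fed level in LKO (log2 difference -1.19, SE 0.256, adjusted p = 0.00284) and a higher fasted level (0.84, SE 0.272, adjusted p = 0.0314). The lower fed level was called under every alternative fitted, while the higher fasted level was not firm. It failed the adjusted threshold under 7 of the 36 alternatives, namely with the processed signal (0.88, adjusted p = 0.0637), in a fit to the compared groups alone (0.90, adjusted p = 0.101), and without LWT_Fasted replicate 1 (0.61), replicate 4 (0.74, adjusted p = 0.0800) or replicate 5 (0.75, adjusted p = 0.0863), and without LKO_Fasted replicate 5 (0.73, adjusted p = 0.0790) or replicate 6 (0.73, adjusted p = 0.0832). Within each of the 3 slides the difference was positive, at 0.98, 0.89 and 1.13.

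Klb (NM_031180, chr5:65774926-65774985) encodes β-klotho, which hepatocytes also make. Its signal ranged from 9.92 to 10.27 in LWT_Fed, from 9.79 to 10.36 in LWT_Fasted, from 9.72 to 10.06 in LKO_Fed and from 10.42 to 10.60 in LKO_Fasted. All LKO_Fasted mice were above all mice of the other groups. Fasting raised Klb in LKO by 0.62 (SE 0.0861, 1.54-fold, adjusted p = 4.79e-06). This fold was just past the minimum, and dropped below it without LKO_Fed replicate 1 (0.56) or LKO_Fed replicate 4 (0.58), with adjusted p of 2.63e-05 and 2.39e-05, and with normexp background correction (0.58, adjusted p = 4.01e-06). In LWT the change was 0.22 (SE 0.0774, adjusted p = 0.0270), and the difference between the responses was 0.40 (SE 0.116, adjusted p = 0.0368), both under the minimum fold. A second probe of Klb (chr5:65770402-65770461), with signals from 5.91 to 6.92, gave -0.13 for fasting in LWT and 0.14 in LKO (adjusted p = 0.332 and 0.369). That probe was dim, with median intensities before background subtraction of 57 to 113, where the median spot of an array read 69 to 88.5, so its values do not bear on the size of the rise.

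Of the receptors that pair with β-klotho, Fgfr1, Fgfr2, Fgfr3 and Fgfr4 were tested, and Kl, which encodes the related α-klotho, was too dim. Fgfr3 fell with fasting in both genotypes (-0.81, adjusted p = 1.83e-05, and -0.66, adjusted p = 0.000587). Fgfr4, the main FGF receptor of hepatocytes, was lowered in LKO (-0.68, adjusted p = 0.000211), and its change in LWT was -0.44 (adjusted p = 0.00434), under the minimum fold. Thus 1 of the 4 receptors was called in LWT and 2 in LKO, all lower, where 10.0% and 12.7% of all genes were called. None differed between genotypes in either state by the call rule.

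Gdf15 (NM_011819, chr8:73153293-73153352) encodes a stress hormone that reduces appetite through a receptor in the hindbrain. In LWT_Fed its signal had a lowest value of 9.09, a median of 9.63 and a highest of 9.90, and in LWT_Fasted 8.70, 10.53 and 10.70. In LKO_Fed the values were 9.18, 9.66 and 10.22, and in LKO_Fasted 10.38, 11.15 and 12.45. The LWT groups overlapped through LWT_Fasted replicate 2, which at 8.70 was the lowest of all 24 arrays, and the LKO groups did not. The rise with fasting was 0.80 (SE 0.271, 1.74-fold, adjusted p = 0.0215) in LWT and 1.36 (SE 0.302, 2.56-fold, adjusted p = 0.000948) in LKO. The call in LWT was lost without LWT_Fed replicate 6 (0.70, adjusted p = 0.0525), with no filter on dim probes (0.78, adjusted p = 0.0658) and with unweighted arrays (0.66, adjusted p = 0.123), and within the first slide alone the difference was -0.37, against 1.07 and 1.28 in the others. Fasted LKO mice were 0.77 above fasted LWT mice (SE 0.296, adjusted p = 0.0717), and the difference between the responses was 0.56 (95% confidence interval -0.28 to 1.40, adjusted p = 0.436). Neither passed. The genotype difference in the fasted state passed with the replicate number as a block in place of the slide term (0.86, adjusted p = 0.0160). It also passed with unweighted arrays (1.07, adjusted p = 0.0260) or without LKO_Fasted replicate 3 (0.98, adjusted p = 0.0245).

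Enho (NM_027147, chr4:41585245-41585304) encodes adropin, a small secreted peptide. Its signal had a lowest value of 11.75, a median of 12.65 and a highest of 13.49 in LWT_Fed, and 11.70, 12.23 and 12.57 in LWT_Fasted. It was 14.46, 14.69 and 14.85 in LKO_Fed, and 13.11, 13.59 and 14.32 in LKO_Fasted. LKO mice were all above LWT mice in both states, and within LKO the fasted mice were all below the fed ones. LKO exceeded LWT by 2.03 in the fed state (SE 0.220, 4.08-fold, adjusted p = 5.44e-06), the 32nd largest difference of all genes tested, and by 1.43 in the fasted state (SE 0.234, 2.69-fold, adjusted p = 0.000191).
Fasting lowered Enho in LKO by 1.05 on the log2 scale (SE 0.238, adjusted p = 0.00114). In LWT, where the fed mice were widely spread, the change was -0.45 (SE 0.214, adjusted p = 0.0960), and with 1 array left out it ranged from -0.65, which passed (without LWT_Fed replicate 4, adjusted p = 0.0147), to -0.22. Within the slides it was 0.38, -0.78 and -0.71, so that its direction was not the same in all 3. The difference between the responses was -0.60 (95% confidence interval -1.26 to 0.07, adjusted p = 0.271), and -0.84 without LWT_Fed replicate 6 (adjusted p = 0.0218). A second probe, which shares most of its bases with the first (chr4:41585257-41585316), gave 2.07 fed and 1.45 fasted between the genotypes, and -0.47 and -1.08 for fasting in LWT and LKO.

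Leap2 (NM_153069, chr11:53235798-53235857) encodes the liver-derived antagonist of the ghrelin receptor. Its lowest, median and highest signals were 13.88, 14.06 and 14.46 in LWT_Fed and 12.64, 12.96 and 13.52 in LWT_Fasted. They were 12.77, 13.11 and 13.60 in LKO_Fed and 9.30, 10.35 and 11.35 in LKO_Fasted. None of the 4 pairs of groups compared overlapped, and the fed LKO mice overlapped with the fasted LWT mice. With fasting Leap2 fell by 1.04 on the log2 scale in LWT (SE 0.186, 2.06-fold, adjusted p = 9.96e-05) and fell by 2.70 in LKO (SE 0.207, 6.49-fold, adjusted p = 9.85e-10). Loss of signal in LKO against LWT was 1.98-fold in the fed state (-0.99, SE 0.191, adjusted p = 0.00129) and 6.24-fold in the fasted state (-2.64, SE 0.203, adjusted p = 2.80e-08), the 6th largest genotype difference of all genes in fasted mice. The responses differed by -1.65 (SE 0.279, 95% confidence interval -2.23 to -1.08, adjusted p = 0.00101). All 5 calls were kept in every alternative fitted, with the fasted genotype difference between -2.83 and -2.51, although a minimum fold of 2 would leave out the fed genotype difference of 1.98-fold. Of the ghrelin system itself Ghrl was tested and did not pass in any comparison, with values from -0.12 to 0.02, and Ghsr and Mboat4 were too dim.

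**Figure D2:**
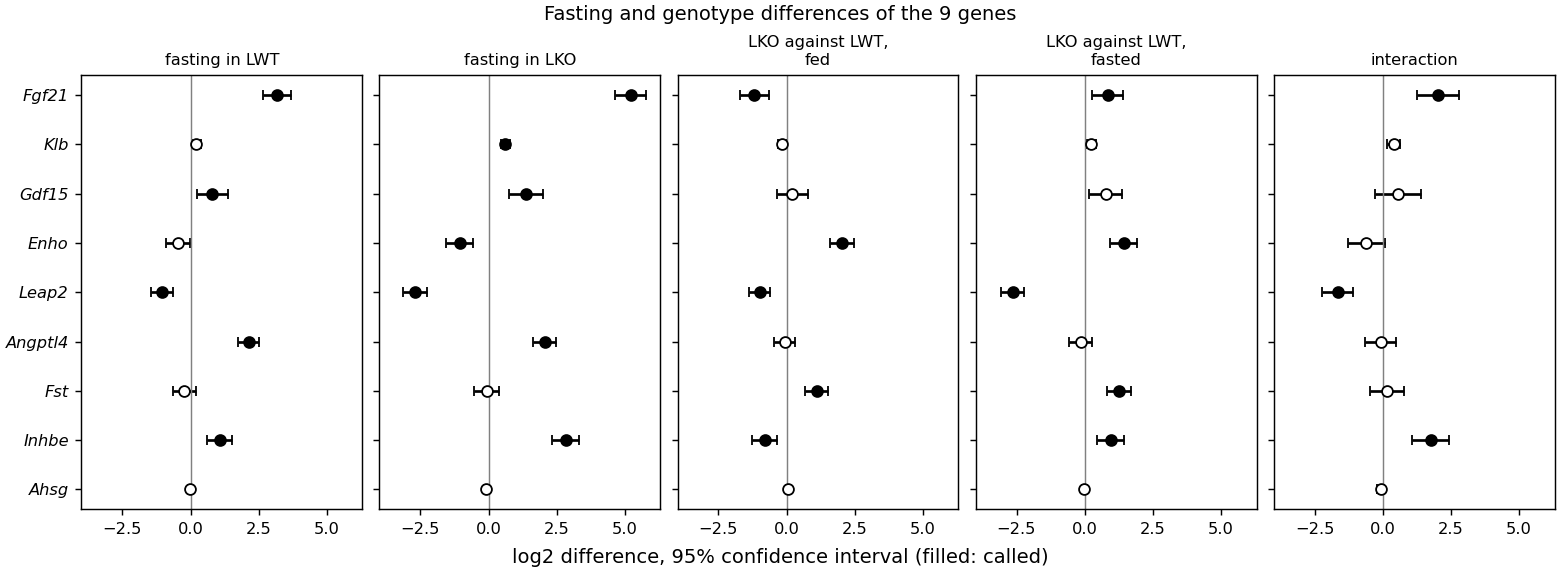
Log2 difference (x axis) of each gene (y axis) in the 5 comparisons, fasted minus fed, LKO minus LWT, and for the interaction the LKO response less the LWT response. Points are limma estimates from 24 arrays, bars their 95% confidence intervals, and filled points were called. The interaction intervals of Fgf21 (1.26 to 2.81), Inhbe (1.09 to 2.43) and Leap2 (-2.23 to -1.08) lay clear of 0, as did that of Klb (0.16 to 0.64), which was under the minimum fold, and those of Angptl4, Fst, Gdf15, Enho and Ahsg included it.

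Angptl4 (NM_020581, chr17:33911880-33911939), a PPARα target whose product inhibits lipoprotein lipase, rose with fasting in both genotypes. Its lowest, median and highest signals were 14.07, 14.35 and 14.74 in LWT_Fed, 16.31, 16.54 and 16.88 in LWT_Fasted, 13.39, 14.55 and 14.81 in LKO_Fed, and 16.17, 16.32 and 16.62 in LKO_Fasted. Fasted mice were all above fed mice. The rise was 2.13 (SE 0.184, 4.38-fold, adjusted p = 7.12e-09) in LWT and 2.05 (SE 0.205, 4.15-fold, adjusted p = 4.53e-08) in LKO. The difference between these was -0.08, with a 95% confidence interval of -0.65 to 0.49 (adjusted p = 0.900), and the genotypes differed by -0.07 in the fed state (-0.46 to 0.32) and by -0.15 in the fasted state (-0.57 to 0.27). A genotype difference of up to about 1.5-fold thus lies within these intervals. LKO_Fed replicate 1, at 13.39, lay apart from its group, and without it the fed difference was 0.20 (adjusted p = 0.374) and the fasting rise in LKO was 1.77.

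Angptl8, whose product restrains the lipase in the fed state, moved the other way. Its change with fasting was -2.76 (adjusted p = 2.27e-09) in LWT and -2.21 (adjusted p = 2.30e-07) in LKO, and its level was lower in LKO fed (-1.45, adjusted p = 0.000247) and fasted (-0.90, adjusted p = 0.0107). Apoc2, the lipase's activator, rose with fasting in LKO (0.65, adjusted p = 1.16e-07), and Lpl itself was higher in LKO in the fasted state (1.23, adjusted p = 0.000557). Of the 9 genes of the lipoprotein lipase pathway other than Angptl4, 1 was called with fasting in LWT (lower) and 3 in LKO (1 higher, 2 lower). The shares of all genes were 10.0% and 12.7%. Between genotypes 1 was called fed (lower in LKO) and 3 fasted (1 higher, 2 lower), against 3.84% and 4.04% of all genes. None differed in its response.

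Inhbe (NM_008382, chr10:126786719-126786778) encodes the subunit of activin E, which is made mainly by hepatocytes. Its lowest, median and highest signals were 11.43, 11.86 and 12.24 in LWT_Fed and 12.38, 12.71 and 13.53 in LWT_Fasted. They were 10.72, 11.00 and 11.46 in LKO_Fed and 12.49, 13.79 and 14.50 in LKO_Fasted. Fed and fasted mice did not overlap in either genotype, while the genotypes overlapped in both states. Fasting raised Inhbe by 1.06 (SE 0.217, 2.09-fold, adjusted p = 0.000405) in LWT and by 2.82 (SE 0.241, 7.08-fold, adjusted p = 4.67e-09) in LKO, and the responses differed by 1.76 (SE 0.324, 95% confidence interval 1.09 to 2.43, adjusted p = 0.00216).
As for Fgf21, the fed level was lower in LKO (-0.81, SE 0.222, adjusted p = 0.0164) and the fasted level higher (0.95, SE 0.237, adjusted p = 0.00639). The first of these failed without LWT_Fed replicate 5 (-0.78, adjusted p = 0.0601), and the second in a fit to the compared groups alone (1.02, adjusted p = 0.0562). LKO_Fasted replicate 4 had the lowest Inhbe signal of its group, 12.49 against 13.66 to 14.50 in the other 5 mice, and without it the fasted difference was 1.07 (adjusted p = 0.00107). Within the slides the fasted difference was 0.17, 1.19 and 1.40.

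Fst (NM_008046, chr13:115244692-115245364, a span wider than the probe) encodes follistatin, the secreted antagonist of activins. Its lowest, median and highest signals were 7.40, 7.75 and 7.96 in LWT_Fed and 6.94, 7.51 and 8.13 in LWT_Fasted, against 8.53, 8.85 and 9.11 in LKO_Fed and 8.33, 8.75 and 10.60 in LKO_Fasted. All LKO mice were above all LWT mice. The difference was 1.10 in the fed state (SE 0.206, 2.14-fold, adjusted p = 0.00101) and 1.26 in the fasted state (SE 0.219, 2.39-fold, adjusted p = 0.000334), and 1.11 in the latter (adjusted p = 0.000108) without LKO_Fasted replicate 4, which at 10.60 lay far above the other 5. The fasting changes were -0.22 in LWT (95% confidence interval -0.64 to 0.19) and -0.06 in LKO (-0.53 to 0.40) and did not pass.

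Among the other 14 genes of the activin pathway tested (Inha and Acvr1c were too dim), the activin subunits moved apart with fasting. Inhba fell by 1.77 in LWT (adjusted p = 1.41e-06) and by 1.17 in LKO (adjusted p = 0.000614), while Inhbb rose by 0.99 (adjusted p = 1.45e-05) and 1.06 (adjusted p = 2.29e-05). Smad7, an inhibitor of the pathway, rose in LWT (0.74, adjusted p = 0.00244), and the receptor gene Acvr1 fell in LKO (-0.63, adjusted p = 5.28e-06). Between genotypes the only call was Acvr2b, a type II activin receptor, higher in LKO in the fed state (0.76, adjusted p = 0.000265). In all, 3 of the 14 were called with fasting in each genotype, where 10.0% of all genes were called in LWT and 12.7% in LKO. Between genotypes 1 was called fed, against 3.84% of all genes, and none fasted or in the response.

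Ahsg (NM_013465, chr16:22899415-22899474) encodes fetuin-A, one of the abundant plasma proteins of the liver, and its probe was on average brighter than 99.9% of probes kept. Its signal ranged from 18.50 to 18.64 in LWT_Fed, from 18.43 to 18.59 in LWT_Fasted, from 18.60 to 18.69 in LKO_Fed and from 18.36 to 18.58 in LKO_Fasted. In the main fit the 5 differences lay between -0.09 and 0.05 and none passed. The widest, fasting in LKO, was -0.09 (95% confidence interval -0.18 to 0.01, adjusted p = 0.138), although the groups did not overlap. With the processed signal the same difference was -0.25 (adjusted p = 0.0186), still under the minimum fold, and with median centring it was -0.09. Over the alternatives the genotype difference in the fed state ranged from 0.03 to 0.23, with a lowest adjusted p of 0.0396. The interaction ranged from -0.28 to -0.05, with a lowest adjusted p of 0.134, and neither was called in any.

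**Figure D3:**
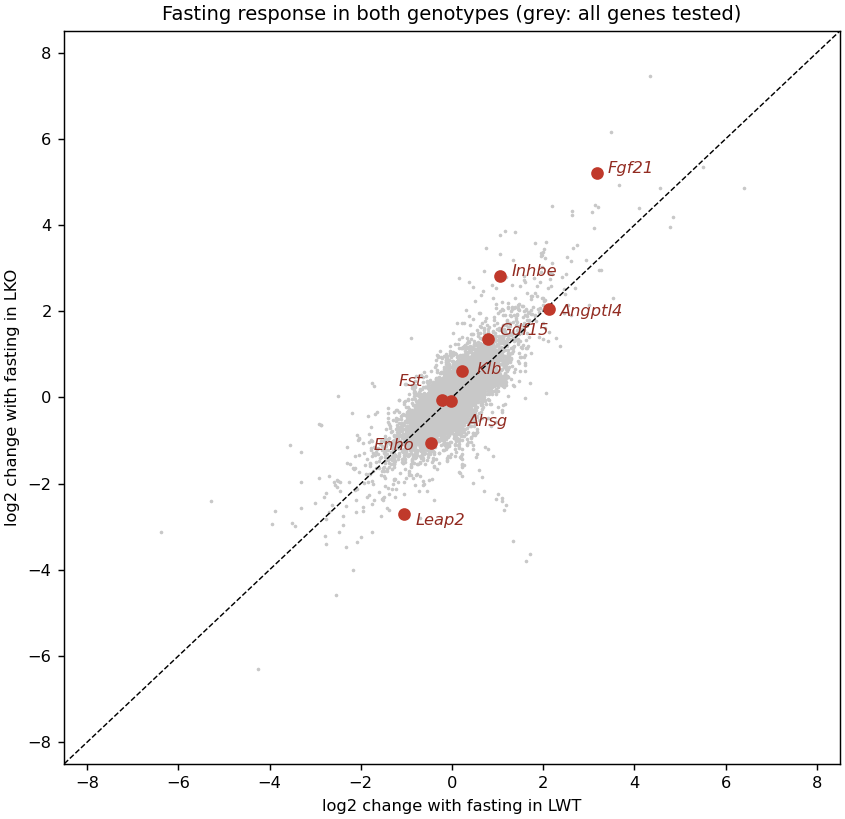
Log2 change with fasting in LWT (x axis) and in LKO (y axis) for the 9 genes (red) and for all 21495 genes tested (grey). The dashed line marks equal change. Angptl4 (2.13 and 2.05) lay on the line, Fgf21 (3.18 and 5.21) and Inhbe (1.06 and 2.82) above it, and Leap2 (-1.04 and -2.70) below it. The comparisons have no arrays in common.

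The transcription factors that act on these genes in the fasted liver were followed on the same arrays, as levels of their own mRNA. Ppara, the fatty acid sensor, rose with fasting by 0.89 (adjusted p = 2.55e-10) in LWT and 0.87 (adjusted p = 1.36e-09) in LKO, with no call between genotypes. Creb3l3, which encodes the liver factor CREBH, rose by 0.59 (adjusted p = 1.24e-08) and 0.94 (adjusted p = 4.56e-11), and its response differed by 0.36 (adjusted p = 0.00788), under the minimum fold. Mlxipl, which encodes ChREBP, fell by 0.92 (adjusted p = 1.40e-08) and 0.81 (adjusted p = 3.15e-07).
Foxo1, the insulin-restrained factor, rose in LWT (0.71, adjusted p = 1.76e-05) and gave 0.05 in LKO (adjusted p = 0.778). Its response differed by -0.66 (adjusted p = 0.0159), and its fasted level was lower in LKO by 0.63 on the log2 scale (adjusted p = 0.000741). Ddit3, a gene of the stress response downstream of ATF4, was higher in LKO in the fed state (1.31, adjusted p = 0.00836), whereas Atf4 gave -0.28 and -0.32 with fasting (adjusted p = 0.0497 and 0.0436), under the minimum fold, and 0.18 between fed genotypes (adjusted p = 0.301). Ppargc1a rose in LWT (0.98, adjusted p = 0.00151), and Nr1d1 rose in both (0.82, adjusted p = 0.000444, and 0.74, adjusted p = 0.00281). Of the 13 regulators listed, 6 were called with fasting in LWT (5 higher) and 4 in LKO (3 higher), where 10.0% and 12.7% of all genes were called. Between genotypes 1 was called fed and 1 fasted, and 1 was called in the response, against 3.84%, 4.04% and 3.12% of all genes.

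A further 18 genes of liver-secreted factors were read in the same way. With fasting 6 were called in LWT (5 higher, 1 lower) and 7 in LKO (4 higher, 3 lower), against 10.0% and 12.7% of all genes. Between genotypes 3 were called fed (all higher in LKO) and 5 fasted (3 higher, 2 lower), against 3.84% and 4.04%. Manf, a factor induced by stress of the endoplasmic reticulum, fell most with fasting, with -2.46 (adjusted p = 5.71e-09) in LWT and -2.17 (adjusted p = 1.36e-07) in LKO. Igfbp1, a binding protein of insulin-like growth factors, rose by 1.99 (adjusted p = 2.92e-05) and 1.73 (adjusted p = 0.000419), and was higher in LKO both fed (1.89, adjusted p = 0.000523) and fasted (1.63, adjusted p = 0.00189).
Igfbp2 was likewise higher in LKO fed (1.64, adjusted p = 3.13e-05) and fasted (1.24, adjusted p = 0.000342), and so was Fgl1 (1.24, adjusted p = 0.000143, and 1.28, adjusted p = 8.50e-05), which also rose with fasting in both genotypes (0.92 and 0.95). Lect2 and Tsku, both secreted by hepatocytes, were the 2 genes whose response differed, each by -0.69 (adjusted p = 0.0311 and 0.0123), and both fell with fasting in LKO (-1.04 and -0.92).

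The genes whose signal ran most closely with each member over the 24 arrays were found by Pearson's r, as a description in which the 4 groups supply most of the shared variation. For Fgf21 these were Tor1a, Cidec and Zbed5, each with r = 0.97, and after removal of the group means the values were 0.29, 0.11 and 0.17. For Angptl4 they were Lgals4 (r = 0.98), Slc25a34 and Cyp4a14 (0.97 each), and within groups 0.79, 0.67 and 0.57. For Inhbe they were Chrna2, Cpt1b (0.95 each) and 2010003K11Rik (0.95), with 0.73, 0.84 and 0.65 within groups. Leap2 ran with Pecr (0.96), Tet1 (0.95) and Sucnr1 (0.95), and within groups these gave 0.23, 0.29 and 0.42.
For the other genes r was lower over the 24 arrays. Klb ran with Frmd6 (0.89), Ptpn12 and Prune1, Gdf15 with Dusp8 (0.87), N4bp1 and Map2k7, Enho with Aph1c (0.89), Gvin1 and Rsph9, Fst with Ang4 (0.89), Abca8b and Tceal9, and Ahsg with Entpd8 (0.79), Cldn3 and Cym. Within groups these values, in the same order, were 0.69, 0.67 and 0.45 for Klb, 0.67, 0.69 and 0.64 for Gdf15, 0.65, 0.33 and 0.64 for Enho, 0.72, 0.77 and 0.68 for Fst, and 0.75, 0.75 and 0.65 for Ahsg. All points share the arrays and their normalization.

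**Figure D4:**
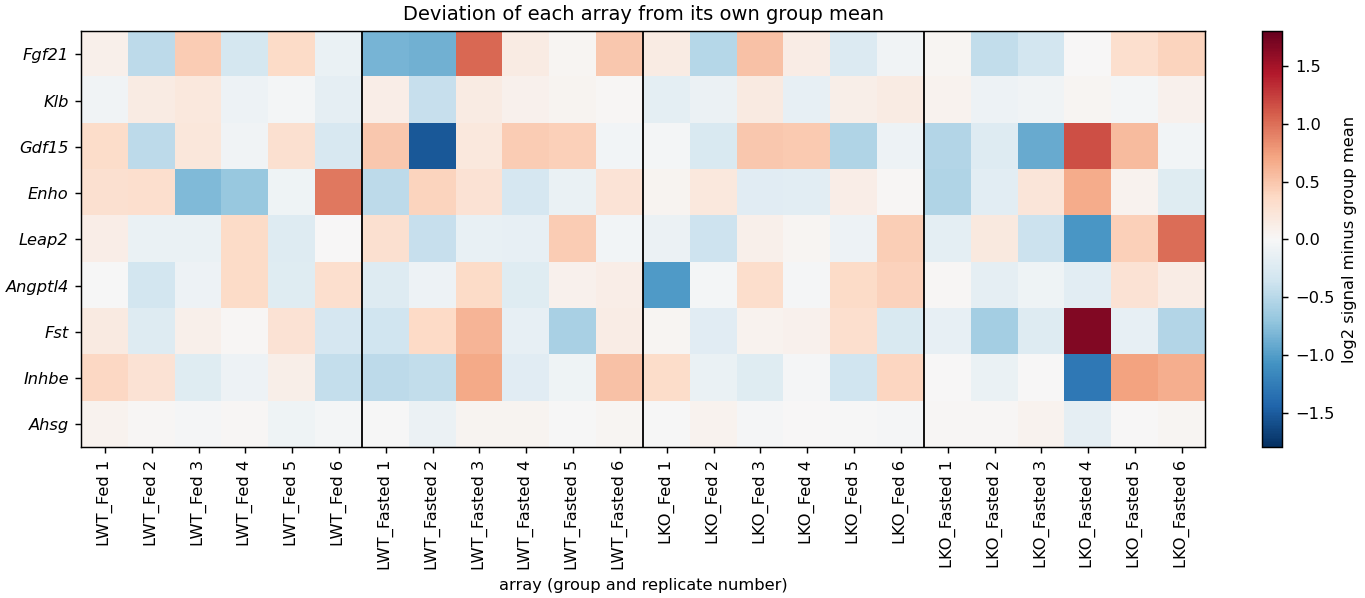
Deviation of each array from the mean of its own group (colour, log2 units) for the 9 genes (rows) and the 24 arrays (columns, by group and replicate number). LKO_Fasted replicate 4 stands out with deviations of 1.67 for Fst, 1.16 for Gdf15, -1.29 for Inhbe and -1.05 for Leap2, and LWT_Fasted replicate 2 with -1.52 for Gdf15.

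Mice of a group were not equally far into these patterns. LKO_Fasted replicate 4 had the highest Fst, Gdf15 and Enho and the lowest Inhbe, Leap2, Angptl4 and Ahsg of its group, while its Fgf21 differed from the group mean by 0.01. On that array the mean of 5 periportal hepatocyte markers was 16.41, the highest of the 24, and that of 5 pericentral markers 14.27, the lowest. LWT_Fasted replicate 2 had the lowest Fgf21, Klb, Gdf15, Leap2 and Ahsg of its group, and the highest mean of 6 endothelial markers of the 24, 11.21. LKO_Fasted replicate 6, with the highest Kupffer mean, had the highest Fgf21 (12.31) and Leap2 (11.35) of its group, and the call of Fgf21 between fasted genotypes was lost without it (0.73, adjusted p = 0.0832). The part of these marker levels in the members' values was not tested. Without LKO_Fasted replicate 4, or without LWT_Fasted replicate 2, each of the 25 calls among the 9 genes was kept. The main fit already gave these arrays low weights, 0.353 and 0.435, where weights ran from 0.315 to 1.86. Leaving them out is therefore a weak check. With unweighted arrays the Gdf15 call with fasting in LWT was lost and that between fasted genotypes was gained.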

How the data were processed

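The authors hybridised Cy3-labelled liver RNA to Agilent SurePrint G3 mouse arrays and read the scans with Feature Extraction 10.10.1.1. The deposited scanner values are spot intensities, not scaled between arrays, and per the file headers the median pixel intensity used here is before background subtraction. The deposited series matrix holds log2 values that the authors quantile normalized after a filter and a correction for the washing bath, and it served as an alternative. The labels number the mice within a group but name no bath.

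Outlier spots were dropped (46 values missing among probes kept, left out of the fit) and spots of a probe averaged. Probes well above background on 5 or more of a group's 6 arrays, in any group, were kept (32197 probes, 21495 genes). Their log2 median intensity was quantile normalized and fitted in R 4.3.3 with limma 3.58.1 (group means, slide as a covariate standing in for the bath, array weights, eBayes, all 24 arrays), with two-sided p adjusted by Benjamini-Hochberg over all probes. Every group had 2 arrays on each of the 3 slides. Fold changes are weighted and adjusted for slide, so they can depart from differences of group values. A gene was read by its probe of highest mean raw signal. Probe positions are those of the files (mm9). Of 56605 probes, 32994 were matched to RefSeq symbols by accession. The procedure was tested on simulated data.

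All 9 genes were named, with other genes from fixed lists (receptors, activin, lipoprotein lipase, ghrelin, regulators, secreted factors): those called, at most the 4 of largest change per list and comparison, and Ppara, Mlxipl, Creb3l3, Atf4, Ddit3 and Foxo1 in any case. Values of 2 listed genes that met this rule are not reported here, although the list counts include them. The genes and lists were chosen with earlier results of these data known. The alternatives changed the signal, background correction, scaling, filter, weights, slide term, pairing, groups in the fit, minimum fold, probe and arrays included. Replicate numbers were not taken to pair the mice. Of 36 same-numbered pairs, 4 correlated above 0.1 in their deviations from group means (median r -0.03, highest 0.28). Different-numbered pairs were not compared, so these values do not settle whether mice were paired. The number of arrays limits the precision.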

Additional observations from a re-analysis of the deposited data

Results flagged for a closer look

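Values of single mice that lay apart from the other 5 of their group by Dixon's test were found in 7 of the 36 groups of values examined (9 genes in 4 groups), where chance alone marks about 1 in 20. LWT_Fasted replicate 2 was marked for Klb (9.79), Gdf15 (8.70) and Ahsg (18.43), in each case below the other 5 mice. LKO_Fasted replicate 4 was marked for Fst (10.60, above the others) and Ahsg (18.36, below them). LKO_Fed replicate 1 was low for Angptl4 (13.39), and LKO_Fed replicate 2 was high for Ahsg (18.69). The Ahsg marks concern a gene whose whole range over the 24 arrays was 18.36 to 18.69.

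The fasting response differed between the genotypes, by limma's interaction term, for Fgf21 (2.04 higher in LKO), Inhbe (1.76 higher) and Leap2 (-1.65 against LWT). For Klb the responses differed by 0.40 (adjusted p = 0.0368, with a range of 0.00538 to 0.0899 over the alternatives), a change of less than 1.5-fold.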

How the results depend on the processing

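Of the 25 calls among the 9 genes, 20 held under every alternative fitted at the 1.5-fold minimum; the others (Gdf15 with fasting in LWT, Klb with fasting in LKO, Inhbe between genotypes fed and fasted, Fgf21 fasted) are given with their genes above, and the cause was not tested. Leaving out 1 array at a time, the members called ranged from 4 to 6 for fasting in LWT, 6 to 7 in LKO, 4 to 5 between genotypes fed, 4 to 6 fasted and 3 to 4 for the interaction. With a minimum fold of 2, 3 members were called fed and 3 fasted (Leap2 fed was lost beside the calls just named), and with the compared groups alone 3 fasted. With no minimum fold all genes called numbered 9032 and 8927 with fasting in LWT and LKO, 4459 and 3600 between genotypes fasted and fed, and 1750 for the interaction, and with a minimum of 2 they numbered 741, 994, 226, 322 and 203. The processed signal called 3257 genes with fasting in LWT, 1441 between genotypes fed and 1344 fasted. With LKO_Fasted replicates 1 and 2 both left out, an alternative chosen after seeing the data, 1215 genes were called for the interaction. In the fits, values that changed sign had not been called. Ahsg with fasting in LWT became 0.0246 with the processed signal and 0.0465 with median centring. Fst with fasting in LKO became 0.11 with median centring, 0.13 without array weights and 0.0067 without LKO_Fasted replicates 1 and 2, and ranged from -0.20 to 0.0288 with 1 array left out. The Angptl4 interaction became 0.0180 with median centring, 0.0276 without those replicates, and ranged from -0.38 to 0.0593 with 1 array left out; its fed difference ranged from -0.20 to 0.20. Klb with fasting in LWT was -0.13 on its other probe, and Gdf15 with fasting in LWT was -0.37 within the first slide. Single slides, with 2 mice a group and no test, turned other values that had not been called, the widest being the Fst fasting change in LKO (0.90 on the first slide), the Gdf15 interaction (-0.49 on the third), Enho with fasting in LWT (0.38 on the first) and Angptl4 between fed genotypes (0.34 on the first). With the replicate number as a block in place of the slide term the Angptl4 interaction was 0.0230, and Gdf15 between fasted genotypes passed (0.86). That fit changed no other call of these genes. Median centring took the median of all genes between fed genotypes from -0.0104 to -0.11 and kept every call of these genes, adding the Klb interaction (0.61). All member probes were well above background, but Fgf21 was dim in LKO_Fed and its fasting rise in LKO ranged from 4.96 to 5.92 over the alternatives, and for the genes too dim to test no change could be read.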
